A study of Mus musculus with 18 samples.

Results

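The chemokine ligand genes of the mouse are described here across heart and lung cultures of induced endothelial cells, native endothelial cells and fibroblasts. The members were 35 ligand genes listed by symbol, each of which matched 1 row among the 35727 gene IDs of the deposited table. Of these, 31 passed the filter on low counts and were tested among 14864 genes, while Ccl22, Ccl24, Cxcl15 and Cxcl17 did not pass it. Bulk RNA-seq was done on 18 libraries in 6 groups of 3: lung iECs, heart iECs, lung ECs, heart ECs, lung fibroblasts and heart fibroblasts. The iEC groups are labelled iEC by cell type and SEG in their titles, terms that the labels do not spell out, and iEC is used in this field for endothelial-like cells made from another cell type. The EC groups hold endothelial cells that the design text calls native, and the fibroblasts are labelled as controls. All 6 groups share the same medium (EGM2, made for endothelial cells) and the same time (day 7), so no group shows the cells in any other medium. The labels name no sort, transgene, strain, sex or age, and leave it unsaid whether a group's 3 libraries are separate cultures or animals. All p-values therefore rest on the spread among these libraries, which may be technical.

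Chemokines are small secreted proteins that guide leukocytes by binding G protein-coupled receptors, and they are grouped as CC, CXC or CX3C by the spacing of their first cysteines. CXC ligands with a glutamate-leucine-arginine (ELR) motif attract neutrophils, the monocyte chemoattractant (MCP) group of CC ligands attracts monocytes, and ligands such as Cxcl12 and Ccl21a direct homing without inflammation. Many of the inflammatory members are induced through NF-kB or interferon signalling in fibroblasts, endothelial cells and macrophages alike, whereas others are made mainly by myeloid cells. Endothelial cells also hold chemokines at their surface, where passing leukocytes meet them.

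Library totals ranged from 17747632 to 23775372 estimated counts, so that 1 count equals 0.0421 to 0.0563 CPM (counts scaled to the library total). Summed over 10 endothelial markers, the libraries held 1148 to 1262 CPM in lung iECs, 1249 to 1313 CPM in heart iECs, 2877 to 3139 CPM in lung ECs, 1720 to 1835 CPM in heart ECs, 24.5 to 27.9 CPM in lung fibroblasts and 228 to 254 CPM in heart fibroblasts. Fibroblast markers (10 genes) were not restricted to the fibroblasts, with 12124 to 16630 CPM in lung iECs, 18180 to 19681 CPM in heart iECs, 6006 to 7729 CPM in lung ECs and 19676 to 20421 CPM in heart ECs, against 34852 to 42496 CPM in lung fibroblasts and 26448 to 27704 CPM in heart fibroblasts. Macrophage markers (16 genes) were high in the lung only, with 3285 to 4708 CPM in lung iECs, 9828 to 11177 CPM in lung ECs and 1194 to 1543 CPM in lung fibroblasts, against 385 to 437 CPM in heart iECs, 357 to 465 CPM in heart ECs and 244 to 278 CPM in heart fibroblasts. Neutrophil markers (8 genes) summed to at most 42.1 CPM in any library, those of T and NK cells (8 genes) to at most 7.32 CPM and those of B cells (4 genes) to at most 0.829 CPM. Epithelial markers (10 genes) summed to 7.80 to 10.1 CPM in lung iECs and 283 to 345 CPM in lung ECs, and lymphatic endothelial markers (6 genes) to 238 to 318 CPM in lung iECs and 1792 to 1931 CPM in lung ECs. Summed by library, dendritic cell markers (6 genes) reached at most 58.0 CPM, mesothelial markers (6 genes) at most 481 CPM and smooth muscle and pericyte markers (7 genes) at most 4310.4 CPM. In bulk RNA a change in the number of cells of a type and a change in RNA per cell cannot be told apart.

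In the chemokine genes 2 lung libraries stood apart. Summed over all 35 members, the lung iEC libraries held 1321, 879 and 3304 CPM (replicates 1, 2 and 3, an order kept throughout), and the lung EC libraries held 4227, 4628 and 1987 CPM. The lung fibroblasts held 1297, 1124 and 940 CPM. Replicate 3 was thus the highest of the lung iECs and the lowest of the lung ECs. The heart groups were tighter, with 344, 329 and 347 CPM in iECs, 4128, 3377 and 3277 CPM in ECs and 727, 682 and 699 CPM in fibroblasts. By macrophage markers both of the libraries stood with the group of their label: lung iEC replicate 3 held 4708 CPM and lung EC replicate 3 held 9828 CPM. Where leaving out either library ended a call or moved a called value by over 1.5 times, the value without it is given below, a choice made after these values were seen.

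The chemokine genes spread most widely between libraries in the lung groups. Among members with a count in all 3 libraries and a mean of at least 1 CPM, 16 of 23 differed at least 2-fold between the highest and the lowest lung iEC library (69.6%, against 6.33% of all such genes), and replicate 3 was the highest for 19 of them. In lung ECs it was 16 of 24 members (66.7%, against 7.83% of all such genes), with replicate 3 the lowest for 20. Lung fibroblasts followed with 9 of 24 (37.5%, against 4.83%), with replicate 1 the highest for 17. In the heart it was 1 of 13 members in iECs (7.69%, against 1.74%), 4 of 24 in ECs (16.7%, against 2.99%) and 1 of 18 in fibroblasts (5.56%, against 1.86%). The median ratio of the members was 6.26 in lung iECs and 3.62 in lung ECs, where all such genes had 1.18 and 1.22. No set test was made, and these are descriptions of the libraries.

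**Figure D1:**
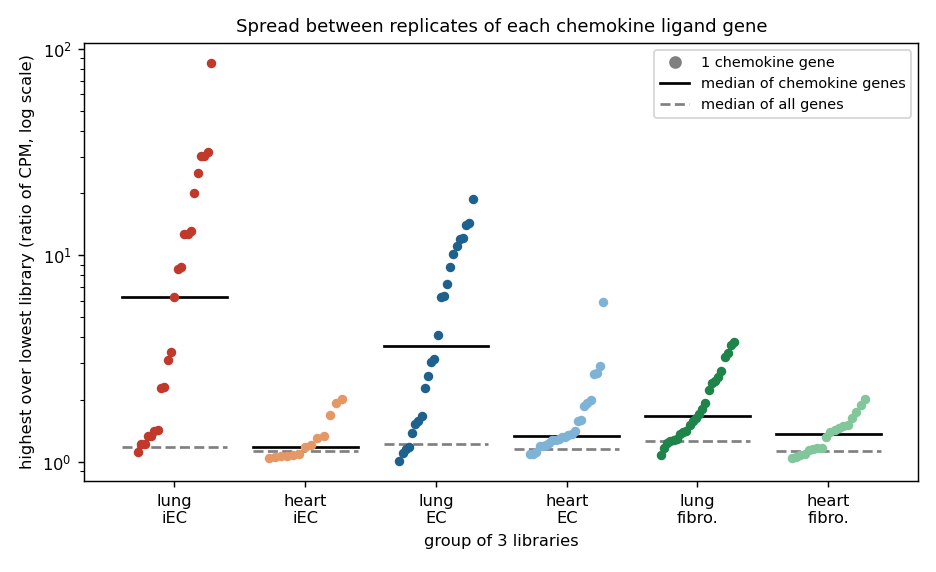
Ratio of the highest to the lowest library (CPM, log axis) for each chemokine ligand gene with a count in all 3 libraries and at least 1 CPM on average, by group, with the median of these genes (solid line) and of all such genes (dashed line). The medians of the chemokine genes are 6.26 in lung iECs and 3.62 in lung ECs, and 1.66 or less in the other 4 groups.

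Genes that share a route of induction with many chemokines also had replicate 3 highest in lung iECs and lowest in lung ECs. The 14 genes of NF-kB subunits and feedback inhibitors summed to 811, 584 and 1650 CPM in lung iECs, to 1749, 1669 and 932 CPM in lung ECs and to 736, 691 and 554 CPM in lung fibroblasts. In lung iECs all 14 were highest in replicate 3 and lowest in replicate 2, and in lung ECs all 14 were lowest in replicate 3. The 16 interferon response genes summed to 1773, 1022 and 3279 CPM in lung iECs and to 3449, 4194 and 1041 CPM in lung ECs, against 4129, 3194 and 3448 CPM in lung fibroblasts, again with all 16 highest in replicate 3 of the iECs and lowest in replicate 3 of the ECs. The macrophage markers varied less, with 4245, 3285 and 4708 CPM in lung iECs and 10767, 11177 and 9828 CPM in lung ECs. The part of these genes' signals in the chemokine spread was not tested.

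**Figure D2:**
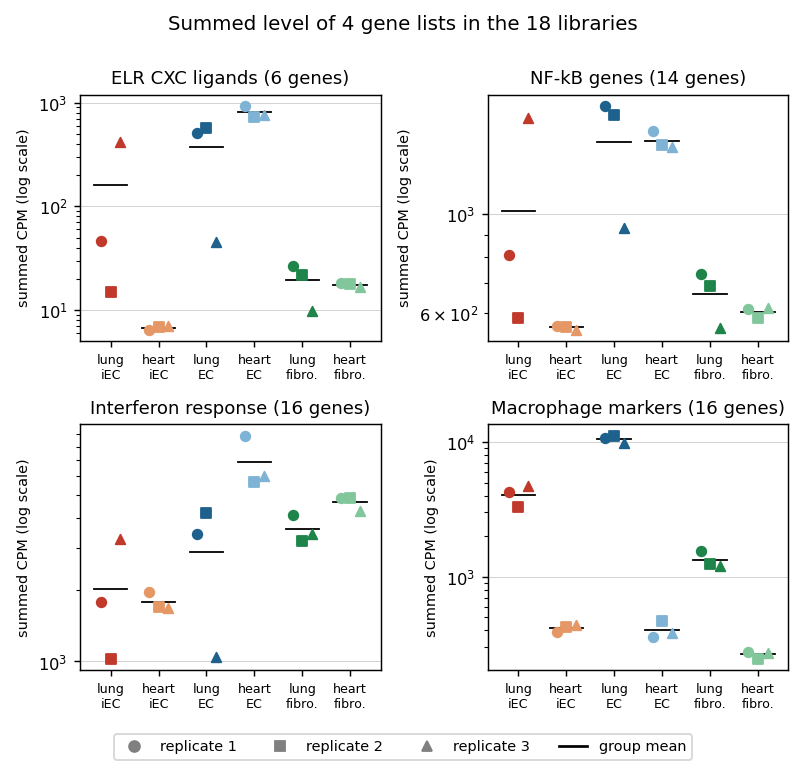
Summed CPM (log axis) of the ELR ligands, the NF-kB genes, the interferon response genes and the macrophage markers in each library, by group, with the mean of each group as a line. Replicate 3 (triangle) is the highest lung iEC library and the lowest lung EC library in the ELR, NF-kB and interferon panels, whereas the macrophage sums of lung ECs stay between 9828 and 11177 CPM.

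Scaled by the length of the union of annotated exons, Ccl2 was on average the leading member in every group, and it led in 14 of the 18 libraries. As CPM per kilobase of exon it averaged 451 in lung iECs, 46.6 in heart iECs, 728 in lung ECs, 1157 in heart ECs, 131 in lung fibroblasts and 51.9 in heart fibroblasts. Its share of the summed level of all 35 members was 37.2% in lung iECs, 31.6% in heart iECs, 29.2% in lung ECs, 46.0% in heart ECs, 27.7% in lung fibroblasts and 22.1% in heart fibroblasts. The genes next in order per kilobase were Ccl6 and Ccl7 in lung iECs (178 and 144), Cxcl16 and Ccl7 in heart iECs (43.1 and 11.6), Ccl6 and Ccl7 in lung ECs (494 and 254), Ccl7 and Cxcl5 in heart ECs (599.8 and 234), Ccl7 and Cxcl12 in lung fibroblasts (95.7 and 69.0), and Cxcl12 and Ccl7 in heart fibroblasts (51.3 and 45.6). In lung iEC replicate 2 Ccl6 stood above Ccl2 (175 and 112), as it did in lung EC replicate 3 (493 and 301), and Cxcl12 led in heart fibroblast replicates 1 and 3. The Ccl2 mean of lung iECs was 198 without replicate 3, and that of lung ECs was 942 without replicate 3. Ccl2 and Cxcl12 in heart fibroblasts differed by little, and Ccl2 and Cxcl16 in heart iECs stood close together as well. The ranking depends on the scaling by length. In mean CPM without it, Cxcl12 stood above Ccl2 in lung fibroblasts (564 and 149) and heart fibroblasts (419 and 59.0). Cxcl16 then stood above Ccl2 in heart iECs (130.3 and 53.0), and Ccl6 above Ccl2 in lung ECs (886 and 829). Ccl2 still led in lung iECs and heart ECs.

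Called changes were counted in each comparison at a Benjamini-Hochberg adjusted p under 0.05 in edgeR's quasi-likelihood test over all 14864 genes. Between 35.5% and 67.7% of the 31 tested members were called in the comparisons of a pair of groups. Heart ECs had 15 members higher and 2 lower than heart fibroblasts (47.4% of all genes called, 24.2% higher and 23.3% lower), with a median log2 change of 2.26 over the members, or 1.89 with a gene absent from one group set at its lower bound, against 0.00 over all genes. Lung ECs had 16 higher and 5 lower than lung fibroblasts (58.1% of all genes, 29.3% higher and 28.7% lower), with medians of 1.19 and 0.00. Heart iECs had 3 higher and 8 lower than heart fibroblasts (50.7% of all genes, 26% higher and 24.6% lower), with medians of −1.16 and 0.02. Lung iECs had 10 higher and 8 lower than lung fibroblasts (50.6% of all genes, 25.9% higher and 24.7% lower), with medians of 0.83 and 0.00. Without lung iEC replicate 3 the last comparison had 5 higher and 7 lower members and a median of −0.21. The iEC and EC comparisons of an organ share their fibroblast libraries. The share of members called was 35.5% in heart iECs, under the 50.7% of all genes, and 58.1% in lung iECs, beside 50.6% of all genes, or 12 of 31 members without lung iEC replicate 3. The heart share depends on the fit. With the libraries of heart iECs and heart fibroblasts alone, Ccl2, Cxcl1, Cxcl5 and Cx3cl1 were called lower as well.

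Set against native ECs, the iECs had mostly lower chemokine genes. Heart iECs had 1 member higher and 19 lower than heart ECs (48.9% of all genes called, 24.4% lower), with a median of −2.73 over the members and 0.01 over all genes. Lung iECs had 2 higher and 10 lower than lung ECs (45.2% of all genes), with medians of −1.02 and −0.01. Without lung iEC replicate 3 the count of called members was 21, with 2 higher and 19 lower and a median of −1.82, and without replicate 3 of both lung iECs and lung ECs it was 24, with 2 higher and 22 lower. Between organs, lung iECs had 19 members higher and 2 lower than heart iECs (37.7% of all genes, 18.9% higher), with medians of 3.52 and −0.02, or 14 higher and 3 lower with a median of 2.26 without lung iEC replicate 3. Lung ECs had 10 higher and 5 lower than heart ECs (48.4% of tested members and 47.9% of all genes called), with medians of −0.57 and 0.02. Lung fibroblasts had 10 higher and 2 lower than heart fibroblasts (38.7% of tested members and 48.5% of all genes called), with medians of 1.19 and 0.01. These counts moved when the fit held the libraries of the compared groups alone, to 9 higher and 2 lower for lung against heart iECs, 7 and 2 for the ECs, and 17 and 3 for the fibroblasts.

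The organ difference of a change, lung minus heart, was tested in the same fit. For the change of iECs against fibroblasts 7 members passed, 6 positive and 1 negative (25.2% of all genes called), and for ECs against fibroblasts 12 passed, 5 positive and 7 negative (34.5% of all genes). The first count was 11 without lung iEC replicate 2, with 10 positive and 1 negative. At 22.6% of 31 members for iECs and 38.7% for ECs, both shares were near those of all genes. Single genes are given below.

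**Figure D3:**
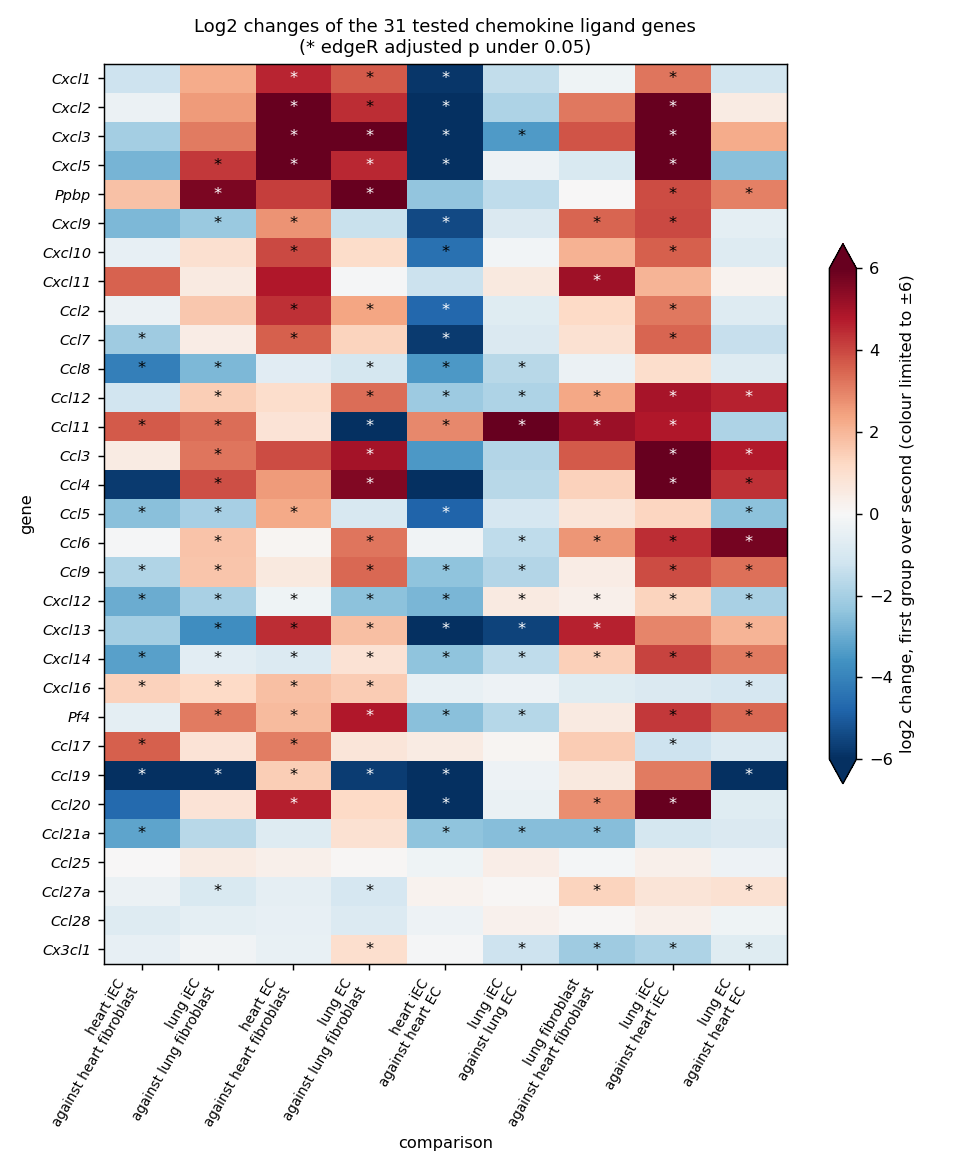
Fitted log2 change (colour, limited to ±6) of the 31 tested chemokine ligand genes in 9 comparisons of a pair of groups, first group over second, with a star where the edgeR adjusted p is under 0.05. Heart iECs against heart ECs holds 19 stars on blue and lung iECs against heart iECs holds 19 on red. Where a group has no count, as for Ccl4, Ccl19, Ccl20 and Cxcl3 in heart iECs, the colour is no bound of the fold.

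The ELR ligands Cxcl1, Cxcl2, Cxcl3 and Cxcl5 bind the neutrophil receptor CXCR2 and lie together on chromosome 5. Cxcl1, Cxcl2 and Cxcl3 had the widest ratio of highest to lowest library in lung iECs, and Cxcl10, an interferon-induced member, varied with them. Stretches of their promoters are shown. They run from 250 to 31 bases before the RefSeq start on GRCm38.p6, 5′ to 3′ on the strand of the gene, and capitals mark matches to a kappaB-like motif (GGG, then any 2 bases, then TTTCC) in the first 3 and to an interferon response-like motif (GAAA, then any 2 bases, then GAAA) in Cxcl10, searched on both strands.
Cxcl1: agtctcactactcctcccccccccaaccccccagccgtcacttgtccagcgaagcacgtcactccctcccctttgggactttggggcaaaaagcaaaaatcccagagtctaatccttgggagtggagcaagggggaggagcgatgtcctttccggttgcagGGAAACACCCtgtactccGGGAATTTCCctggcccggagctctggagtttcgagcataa
Cxcl2: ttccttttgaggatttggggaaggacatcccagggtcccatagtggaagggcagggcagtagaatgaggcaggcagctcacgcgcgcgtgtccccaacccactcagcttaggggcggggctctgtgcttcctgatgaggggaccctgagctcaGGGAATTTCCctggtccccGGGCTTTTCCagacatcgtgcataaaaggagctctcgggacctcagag
Cxcl3: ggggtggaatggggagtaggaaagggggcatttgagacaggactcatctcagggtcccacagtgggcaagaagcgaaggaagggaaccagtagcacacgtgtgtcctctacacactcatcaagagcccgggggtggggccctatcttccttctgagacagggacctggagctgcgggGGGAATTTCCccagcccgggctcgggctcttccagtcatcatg
Cxcl10: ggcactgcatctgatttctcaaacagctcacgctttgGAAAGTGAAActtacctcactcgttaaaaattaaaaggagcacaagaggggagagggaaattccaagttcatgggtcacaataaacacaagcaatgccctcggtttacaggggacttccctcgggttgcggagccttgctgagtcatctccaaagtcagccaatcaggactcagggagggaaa

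The stretches lie at chr5:90890995-90891214, chr5:90903649-90903868 and chr5:90785851-90786070 on the plus strand and at chr5:92348920-92349139 on the minus strand. The same letters, GGGAATTTCC, stood 71 to 62 bases before the start of Cxcl1, 97 to 88 bases before that of Cxcl2 and 73 to 64 bases before that of Cxcl3. Cxcl1 held a further match on its other strand at 89 to 80 bases, and Cxcl2 held GGGCTTTTCC at 78 to 69 bases. Ccl2, Ccl4, Ccl5, Ccl7, Ccl11, Ccl24, Cxcl5, Cxcl11, Cxcl16 and Cxcl17 had no RefSeq window at hand and were not searched. RefSeq windows of 250 bases were at hand for 25 of the 35 members, with 28 windows in all. The kappaB-like motif was in 5 of these members, the others being Ccl9 and Ccl20, and in 1.41% of all 32851 promoter windows. The interferon response-like motif was in 3 members, Cxcl10, Ccl19 and Cxcl14, and in 2.98% of all windows. The window of Cxcl9 held no match to either motif and is not shown. Cxcl9 and Cxcl11 are interferon-induced as well and also varied. The highest library held 12.2 times the lowest for Cxcl9 in lung ECs and 20.1 times for Cxcl11 in lung iECs. The shares of all promoters count windows, whereas the members are counted as genes. A match describes letters and not a bound site. The kappaB-like motif is 1 narrow form. Letters close to it, such as gggaaattcc and gggacttccc in the Cxcl10 stretch, do not match it and were not marked. Both motifs were chosen with the expression values known.

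All 4 of these ELR genes were called higher in native ECs than in fibroblasts of the same organ, in heart and in lung. Cxcl1 stood at 15.9, 4.68 and 142 CPM in lung iECs, 204, 212 and 17.8 CPM in lung ECs and 14.9, 10.8 and 6.06 CPM in lung fibroblasts. In the heart it stood at 5.36, 5.19 and 5.54 CPM in heart iECs, 335, 262 and 274 CPM in heart ECs and 10.8, 11.8 and 11.2 CPM in heart fibroblasts. Heart ECs and lung ECs lay above their fibroblasts in every library, and among lung iECs replicate 3 reached the range of ECs while replicate 2 lay under all lung fibroblasts. The log2 change of Cxcl1 (± SE) was 4.58 ± 1.13 (adjusted p = 0.0051) in heart ECs against fibroblasts and 3.70 ± 1.10 (adjusted p = 0.0114) in lung ECs against fibroblasts. It was −5.83 ± 1.21 (adjusted p = 0.00147) in heart iECs against heart ECs. In heart iECs against heart fibroblasts it was −1.25 ± 1.15 (adjusted p = 0.394) in the fit to all groups, whereas the 6 libraries of the compared groups alone gave −1.26 ± 0.130 (adjusted p = 6.92e-09), with no overlap of the libraries. In lung iECs against heart iECs it was 3.23 ± 1.13 (adjusted p = 0.0391), and 0.80 ± 0.915 (adjusted p = 0.567) without lung iEC replicate 3. For Cxcl1, the call in lung iECs against heart iECs was also lost without any one heart iEC library (adjusted p = 0.0991 to 0.104).

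Cxcl2 was called in the same 2 comparisons of ECs with fibroblasts. It stood at 14.1, 2.53 and 79.8 CPM in lung iECs, 160.3, 157 and 15.9 CPM in lung ECs and 7.44, 5.26 and 2.21 CPM in lung fibroblasts. In the heart Cxcl2 stood at 0.361, 0.548 and 0.393 CPM in heart iECs, 91.4, 57.7 and 70.4 CPM in heart ECs and 0.186, 0.940 and 0.323 CPM in heart fibroblasts. Heart iECs and heart fibroblasts were under 1 CPM in every library, and their ranges overlapped. Cxcl2 rose by 7.10 ± 1.49 (adjusted p = 0.0017) in heart ECs and by 4.42 ± 1.11 (adjusted p = 0.00419) in lung ECs, each against fibroblasts. In lung iECs against heart iECs it was higher by 6.08 ± 1.51 (adjusted p = 0.00646), a call that held without lung iEC replicate 3 at 4.09 ± 1.39 (adjusted p = 0.043) and was lost in the fit to those 6 libraries alone at 6.10 ± 1.85 (adjusted p = 0.0599). Against lung ECs, lung iECs gave −1.85 ± 0.945 (adjusted p = 0.131) with all libraries and −3.83 ± 0.968 (adjusted p = 0.00729) without lung iEC replicate 3. For Cxcl2, leaving out heart fibroblast replicate 2 gave 8.05 (adjusted p = 0.00771) for the log2 change in heart ECs against heart fibroblasts.

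Cxcl3 had no count in heart iECs and at most 1 count in a heart fibroblast library. Its lung values were 1.36, 0.0954 and 8.16 CPM in lung iECs, 37.7, 53.6 and 3.75 CPM in lung ECs and 0.225, 0.517 and 0.221 CPM in lung fibroblasts. Its heart values were 0, 0 and 0 CPM in heart iECs, 7.34, 5.24 and 6.10 CPM in heart ECs and 0.0464, 0 and 0 CPM in heart fibroblasts. No heart iEC library held a count, so Cxcl3 was at least 145-fold lower in heart iECs than in heart ECs and at least 71.3-fold higher in lung iECs than in heart iECs, with 3 counts over the group in place of 0. The second of these bounds was 16.7-fold without lung iEC replicate 3, where its call was lost (adjusted p = 0.189). Heart ECs held 384 counts against 1 count in heart fibroblasts, a ratio of 388 (95% interval 69.2 to 15350.0, counting error only). Lung ECs were higher than lung fibroblasts by 6.50 ± 1.39 (adjusted p = 0.00198), and lung iECs were lower than lung ECs by a log2 change of −3.38 ± 1.05 (adjusted p = 0.0225). For Cxcl3, the call in heart ECs against heart fibroblasts was lost without heart fibroblast replicate 1 (adjusted p = 0.06). For Cxcl3, the call in lung iECs against lung ECs was lost without lung iEC replicate 1 or 2 or lung EC replicate 1 or 2 (adjusted p = 0.0518 to 0.0823). For Cxcl3, the call in lung iECs against heart iECs was also lost without any one heart iEC library (adjusted p = 0.0773 to 0.0806). For Cxcl3, leaving out lung EC replicate 2 gave 5.86 (adjusted p = 0.00587) for the log2 change in lung ECs against lung fibroblasts. For Cxcl3, leaving out lung iEC replicate 3 gave −5.56 (adjusted p = 0.00402) for the log2 change in lung iECs against lung ECs.

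Cxcl5 was the ELR ligand with the highest level per kilobase in heart ECs. In the lung it stood at 14.5, 7.58 and 190.1 CPM in lung iECs, 102, 139 and 7.41 CPM in lung ECs and 4.17, 4.89 and 1.28 CPM in lung fibroblasts. The heart libraries gave 0.676, 1.10 and 1.09 CPM in heart iECs, 489, 408 and 411 CPM in heart ECs and 7.10, 5.17 and 5.01 CPM in heart fibroblasts. Lung EC replicate 3 lay at the level of lung iEC replicate 2, and every heart EC library exceeded every other library of the series. Cxcl5 rose by 6.12 ± 1.30 (adjusted p = 0.00193) in heart ECs and by 4.52 ± 1.29 (adjusted p = 0.0089) in lung ECs against fibroblasts, and heart iECs were lower than heart ECs at −8.89 ± 1.57 (adjusted p = 0.000413). Lung iECs were higher than lung fibroblasts by 4.23 ± 1.28 (adjusted p = 0.0148), but by 1.52 ± 0.994 (adjusted p = 0.242) without lung iEC replicate 3. The organ difference of the iEC change was 7.00 ± 2.04 (adjusted p = 0.0237), and 4.29 ± 1.53 (adjusted p = 0.0679) without that library. Heart iECs against heart fibroblasts gave −2.77 ± 1.64 (adjusted p = 0.181) in the fit to all groups and −2.77 ± 0.245 (adjusted p = 4.14e-10) in the fit to those groups alone. For Cxcl5, the call in lung iECs against lung fibroblasts was also lost without lung fibroblast replicate 3 (adjusted p = 0.0568). For Cxcl5, the call for the organ difference of the iEC change was also lost without heart iEC replicate 1 or 2 or lung fibroblast replicate 3 (adjusted p = 0.0507 to 0.0537). For Cxcl5, leaving out lung EC replicate 2 gave 3.90 (adjusted p = 0.0298) for the log2 change in lung ECs against lung fibroblasts.

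Ppbp, the precursor of platelet basic protein, did not reach 1 CPM on average in any group, with up to 0.733 CPM in lung iECs, 0.0451 CPM in heart iECs, 1.26 CPM in lung ECs and 0.212 CPM in heart ECs and no count in the fibroblasts. It was at least 18.7-fold higher in lung ECs and at least 6.60-fold higher in lung iECs, each against lung fibroblasts, and the second was at least 2.59-fold without lung iEC replicate 3, where the call was lost (adjusted p = 0.101). Cxcl15, known in the mouse as a product of lung epithelium, had no count in either iEC group or in heart ECs and at most 0.47 CPM in other libraries. For Ppbp, the call in lung iECs against lung fibroblasts was also lost without lung fibroblast replicate 3 (adjusted p = 0.0517).

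**Figure D4:**
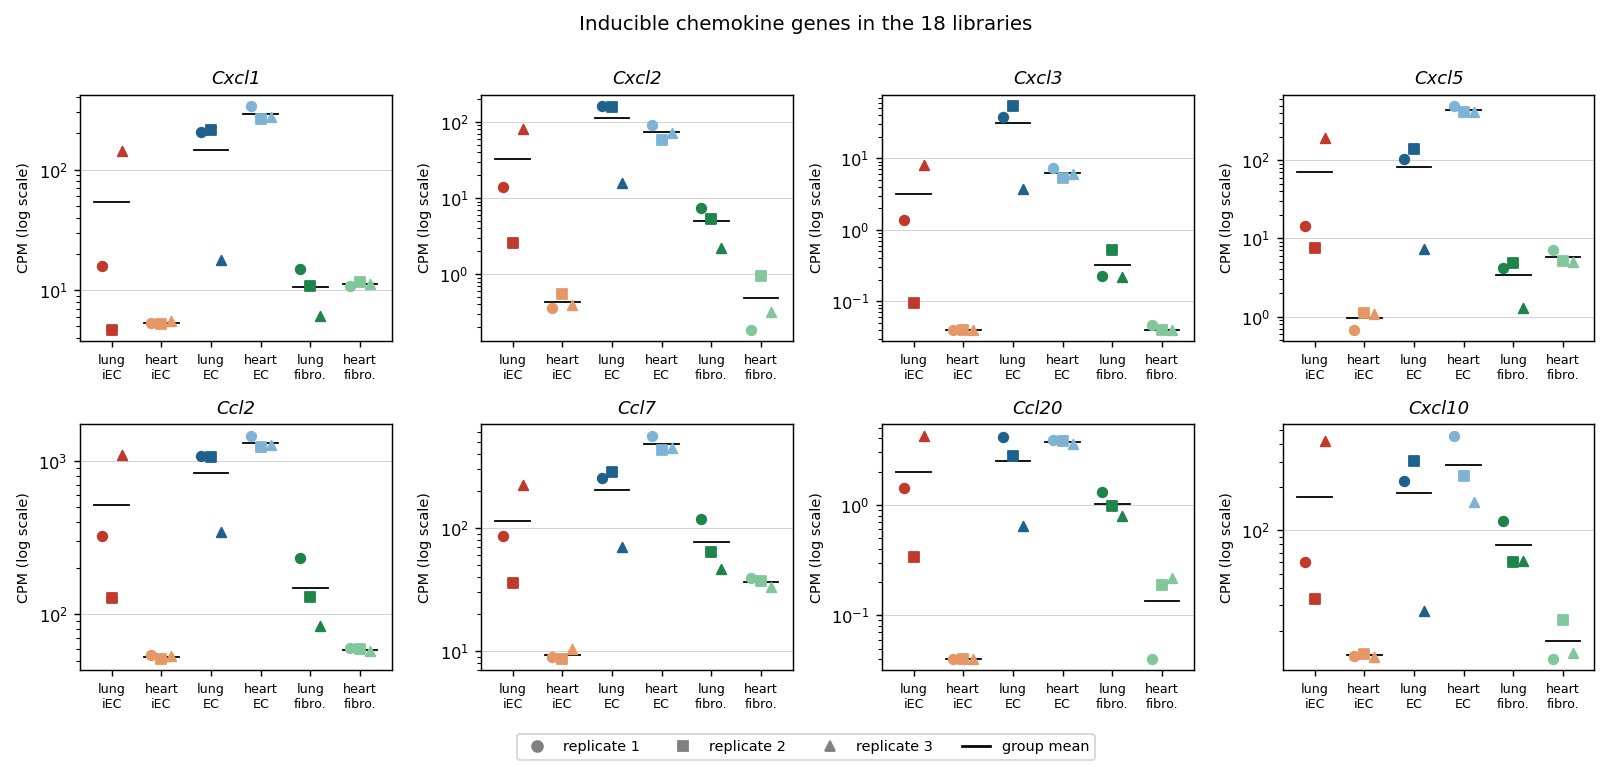
CPM (log axis) of 8 inducible chemokine genes in the 18 libraries, by group, with symbols for replicates 1 to 3 and a line at the group mean. A library without a count is drawn at 0.04 CPM. In lung iECs replicate 3 (triangle) is the highest and in lung ECs the lowest in all 8 panels, and the 3 heart EC libraries lie close together in 7 of them, with Cxcl10 between 157 and 457 CPM.

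Among the MCP group, Ccl2 and Ccl7, which attract monocytes through CCR2, followed the ELR ligands. Lung libraries held Ccl2 at 323, 127 and 1089 CPM in lung iECs, 1080.4, 1064 and 342 CPM in lung ECs and 232, 129.9 and 84.7 CPM in lung fibroblasts. Heart libraries held Ccl2 at 54.4, 51.1 and 53.6 CPM in heart iECs, 1459.7, 1229.6 and 1259.9 CPM in heart ECs and 60.1, 59.2 and 57.8 CPM in heart fibroblasts. Heart ECs exceeded heart fibroblasts and heart iECs in every library, and heart iECs lay just under heart fibroblasts. The log2 change of Ccl2 was 4.37 ± 0.734 (adjusted p = 0.00033) in heart ECs and 2.38 ± 0.671 (adjusted p = 0.00833) in lung ECs against fibroblasts, and −4.71 ± 0.745 (adjusted p = 0.000177) in heart iECs against heart ECs. Lung iECs were higher than heart iECs by 3.17 ± 0.696 (adjusted p = 0.00293), with every lung library above every heart one, but the fit to those 6 libraries alone did not call it (3.18 ± 0.934 adjusted p = 0.0557). For heart iECs against heart fibroblasts the change was −0.34 ± 0.652 (adjusted p = 0.697) over all groups and −0.35 ± 0.0564 (adjusted p = 8.71e-06) over those groups alone. For Ccl2, leaving out lung iEC replicate 3 gave 1.96 (adjusted p = 0.0127) for the log2 change in lung iECs against heart iECs.

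Ccl7 stood at 85.7, 35.7 and 224 CPM in lung iECs, 254, 286 and 70.0 CPM in lung ECs and 119.7, 63.8 and 46.5 CPM in lung fibroblasts. Heart values of Ccl7 were 9.01, 8.60 and 10.3 CPM in heart iECs, 565, 429 and 447 CPM in heart ECs and 39.1, 37.1 and 33.4 CPM in heart fibroblasts. Against heart fibroblasts it was called lower in heart iECs, by a log2 change of −2.16 ± 0.676 (adjusted p = 0.0176). Ccl2 was not called there in the fit to all groups but was called lower in the fit to those groups alone. The difference between the 2 genes was not tested. Ccl7 gave 3.60 ± 0.672 (adjusted p = 0.000735) in heart ECs against fibroblasts and −5.76 ± 0.756 (adjusted p = 3.47e-05) in heart iECs against heart ECs. In lung ECs against lung fibroblasts Ccl7 was not called at 1.31 ± 0.617 (adjusted p = 0.086), but it was without lung EC replicate 3 at 1.74 ± 0.570 (adjusted p = 0.0215). Lung iECs overlapped lung fibroblasts (0.44 ± 0.611 with adjusted p = 0.585) and exceeded heart iECs by 3.52 ± 0.695 (adjusted p = 0.00138). For Ccl7, the call in heart iECs against heart fibroblasts was lost without heart iEC replicate 1 or 2 (adjusted p = 0.0516 and 0.0547). For Ccl7, leaving out lung iEC replicate 3 gave 2.57 (adjusted p = 0.00557) for the log2 change in lung iECs against heart iECs.

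Ccl12, a CCR2 ligand of the mouse, was higher in lung than in heart in each cell type. Its level was 6.07, 2.81 and 6.38 CPM in lung iECs, 19.6, 19.4 and 14.2 CPM in lung ECs and 2.03, 2.02 and 0.841 CPM in lung fibroblasts. In the heart Ccl12 was at 0.316, 0.127 and 0 CPM in heart iECs, 0.849, 0.748 and 0.324 CPM in heart ECs and 0.557, 0.141 and 0.162 CPM in heart fibroblasts, all under 1 CPM. The lung groups fell in the order ECs, iECs, fibroblasts without overlap. Ccl12 rose by 3.34 ± 0.442 (adjusted p = 6.08e-06) in lung ECs and by 1.49 ± 0.444 (adjusted p = 0.0101) in lung iECs against lung fibroblasts, and was lower in lung iECs than in lung ECs at −1.85 ± 0.400 (adjusted p = 0.00117). Lung exceeded heart by 4.62 ± 0.494 (adjusted p = 7.65e-07) in ECs, by 4.95 ± 0.619 (adjusted p = 7.24e-06) in iECs and by 2.30 ± 0.618 (adjusted p = 0.00535) in fibroblasts. For Ccl12, the call in lung iECs against lung fibroblasts was lost without lung fibroblast replicate 3 (adjusted p = 0.0523). For Ccl12, leaving out heart fibroblast replicate 1 gave 3.24 (adjusted p = 0.00303) for the log2 change in lung against heart fibroblasts. For Ccl12, the heart iEC libraries other than replicate 1 held 3 counts in sum, so no fold without that library is given.

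Ccl8, which in the mouse binds CCR8, was called lower in iECs than in fibroblasts of both organs. Lung values of Ccl8 were 1.20, 0.191 and 0.837 CPM in lung iECs, 2.30, 2.10 and 2.32 CPM in lung ECs and 4.51, 3.85 and 4.42 CPM in lung fibroblasts. The heart values were 0.406, 0.0843 and 0.480 CPM in heart iECs, 4.67, 1.76 and 3.72 CPM in heart ECs and 5.01, 4.18 and 5.81 CPM in heart fibroblasts. Both iEC groups lay under the fibroblasts and under the ECs of their organ in every library. Ccl8 fell by 4.12 ± 0.502 on the log2 scale in heart iECs (adjusted p = 1.78e-06) and by 2.69 ± 0.459 in lung iECs (adjusted p = 8.71e-05) against fibroblasts. Lung ECs against fibroblasts gave −1.04 ± 0.405 (adjusted p = 0.0349), which was lost when any of the 3 lung EC libraries was left out. For Ccl8, the call in lung ECs against lung fibroblasts was also lost without lung fibroblast replicate 1 or 3 (adjusted p = 0.0702 and 0.0767).

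Ccl11, the eosinophil attractant eotaxin, was called higher in iECs than in fibroblasts of both organs. In the lung it was at 11.4, 12.4 and 26.1 CPM in lung iECs, 0.0512, 0 and 0 CPM in lung ECs and 1.35, 1.22 and 1.73 CPM in lung fibroblasts. In the heart Ccl11 was at 0.721, 0.759 and 0.174 CPM in heart iECs, 0.0849, 0.107 and 0 CPM in heart ECs and 0.0464, 0 and 0.0538 CPM in heart fibroblasts. Lung iECs were thus the only group above 2 CPM, and the EC groups were near 0. Lung iECs exceeded lung fibroblasts by 3.37 ± 0.408 (adjusted p = 1.8e-06), and heart iECs exceeded heart fibroblasts with 38 against 2 counts, a ratio of 16.9 (95% interval 4.38 to 145, counting error only). Against lung ECs, lung iECs held 975 counts against 1 count, a ratio of 1069 (interval 191 to 42270.0). Lung ECs held 1 count against 89 counts in lung fibroblasts, 93.7 times lower (interval 16.4 to 3742). Lung fibroblasts exceeded heart fibroblasts with 89 against 2 counts, a ratio of 44.3 (interval 11.9 to 372). The organ difference of the EC change was called (adjusted p = 0.00849) and that of the iEC change was not (−0.33 ± 0.836 with adjusted p = 0.827). For Ccl11, the call for the organ difference of the EC change was lost without heart EC replicate 1 or 2 (adjusted p = 0.0522 and 0.0536).

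Ccl3 and Ccl4, the macrophage inflammatory proteins 1 alpha and beta, averaged highest in lung ECs and next in lung iECs, with the wide spread of the inducible set. Heart ECs averaged slightly above lung fibroblasts for both. Ccl3 stood at 28.8, 8.40 and 110.2 CPM in lung iECs, 213, 231 and 36.8 CPM in lung ECs and 8.0, 4.32 and 2.17 CPM in lung fibroblasts. Heart libraries held Ccl3 at 0.496, 0.337 and 0.742 CPM in heart iECs, 5.18, 6.41 and 4.75 CPM in heart ECs and 0.325, 0.282 and 0.377 CPM in heart fibroblasts. Ccl3 rose by 4.99 ± 0.947 (adjusted p = 0.000551) in lung ECs and by 3.22 ± 0.913 (adjusted p = 0.0101) in lung iECs against fibroblasts, the second being 1.80 ± 0.783 (adjusted p = 0.0823) without lung iEC replicate 3. Heart ECs lay above heart fibroblasts in all libraries, which the fit to all groups did not call (3.93 ± 1.57 with adjusted p = 0.0567) and the fit to those groups did (3.93 ± 0.288 with adjusted p = 1.72e-08). Lung ECs exceeded heart ECs by 4.76 ± 0.931 (adjusted p = 0.000956) and lung iECs exceeded heart iECs by 6.43 ± 1.21 (adjusted p = 0.000995). For Ccl3, leaving out lung iEC replicate 3 gave 5.0 (adjusted p = 0.00301) for the log2 change in lung iECs against heart iECs.

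Ccl4 stood at 6.02, 1.10 and 33.2 CPM in lung iECs, 52.3, 65.1 and 4.63 CPM in lung ECs and 1.86, 0.423 and 0.310 CPM in lung fibroblasts. In the heart Ccl4 was at 0, 0 and 0 CPM in heart iECs, 2.04, 1.98 and 1.29 CPM in heart ECs and 0.0928, 0.141 and 0.646 CPM in heart fibroblasts. Heart iECs held no count, so that lung iECs were at least 299-fold higher, a value carried by the 33.2 CPM of replicate 3 and at least 81.6-fold without it. The gene rose by 5.54 ± 1.41 (adjusted p = 0.00595) in lung ECs. In lung iECs, whose replicate 2 lay within the fibroblasts, it was higher by 3.88 ± 1.41 (adjusted p = 0.0406), a call lost without replicate 3 at 1.93 ± 1.32 (adjusted p = 0.271). For Ccl4, the call in lung iECs against lung fibroblasts was also lost without any one lung fibroblast library (adjusted p = 0.0552 to 0.12). For Ccl4, leaving out lung fibroblast replicate 1 gave 6.69 (adjusted p = 0.013) for the log2 change in lung ECs against lung fibroblasts.

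Ccl6 and Ccl9, mouse CCR1 ligands made chiefly by myeloid cells, and Pf4, platelet factor 4, which megakaryocytes and some macrophages make, were higher in lung iECs and lung ECs than in lung fibroblasts, and the highest library of each of these groups held at most 1.52 times the lowest for Ccl6 and Pf4. Ccl6 stood at 306, 315 and 340.1 CPM in lung iECs, 888, 885 and 885 CPM in lung ECs and 92.9, 70.9 and 97.1 CPM in lung fibroblasts. In the heart Ccl6 was at 12.2, 12.1 and 16.1 CPM in heart iECs, 9.72, 19.2 and 15.9 CPM in heart ECs and 14.9, 10.2 and 12.3 CPM in heart fibroblasts. The 3 lung EC libraries lay within a narrow range, replicate 3 included, and the lung groups did not overlap. Ccl6 rose by 3.23 ± 0.198 (adjusted p = 9.93e-10) in lung ECs and by 1.72 ± 0.188 (adjusted p = 1.33e-06) in lung iECs against fibroblasts, and lung iECs were lower than lung ECs at −1.52 ± 0.185 (adjusted p = 6.16e-06). In the heart neither change was called, and the organ differences were 3.09 ± 0.278 (adjusted p = 3.36e-07) for ECs and 1.79 ± 0.275 (adjusted p = 0.00016) for iECs.

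Pf4 also ran from ECs through iECs to fibroblasts in the lung. Its lung values were 35.8, 36.9 and 50.8 CPM in lung iECs, 120.3, 160.0 and 105 CPM in lung ECs and 5.41, 3.90 and 3.58 CPM in lung fibroblasts. Its heart values were 2.12, 1.48 and 2.49 CPM in heart iECs, 12.2, 9.30 and 10.8 CPM in heart ECs and 3.25, 2.16 and 2.64 CPM in heart fibroblasts. It rose by 4.80 ± 0.239 (adjusted p = 5.87e-11) in lung ECs, by 3.11 ± 0.232 (adjusted p = 1.27e-08) in lung iECs and by 1.89 ± 0.254 (adjusted p = 1.57e-05) in heart ECs against fibroblasts, with no overlap of libraries in any of these. Lung iECs were below lung ECs at −1.69 ± 0.197 (adjusted p = 3.32e-06), and heart iECs were below heart ECs at −2.49 ± 0.260 (adjusted p = 8.17e-07). The organ difference was 3.70 ± 0.380 (adjusted p = 3.03e-06) for the iEC change and 2.91 ± 0.350 (adjusted p = 7.34e-06) for the EC change. Of 7 platelet and megakaryocyte markers 4 were tested, and in lung iECs against lung fibroblasts 1 was higher and none lower (25.9% and 24.7% of all genes). All 7 summed to 38.7, 34.4 and 36.6 CPM in lung iECs, 251, 288 and 167 CPM in lung ECs and 10.6, 10.1 and 11.9 CPM in lung fibroblasts. Their heart sums were 46.4, 45.3 and 46.6 CPM in iECs, 113, 80.3 and 104 CPM in ECs and 24.5, 21.6 and 19.1 CPM in fibroblasts. The part of such cells in the Pf4 levels was not tested.

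Ccl9 lay between both patterns. The lung libraries held 125, 73.5 and 250.1 CPM in lung iECs, 546, 694 and 229 CPM in lung ECs and 48.3, 39.3 and 38.0 CPM in lung fibroblasts. The heart libraries held 8.47, 10.04 and 8.86 CPM in heart iECs, 42.1, 51.6 and 44.4 CPM in heart ECs and 28.8, 27.4 and 28.5 CPM in heart fibroblasts. In lung ECs replicate 3 was the lowest and overlapped lung iEC replicate 3, as in the inducible genes, while all 3 stayed far above the fibroblasts. Ccl9 rose by 3.45 ± 0.455 (adjusted p = 2.3e-05) in lung ECs and by 1.68 ± 0.429 (adjusted p = 0.00523) in lung iECs but fell by 1.81 ± 0.462 in heart iECs (adjusted p = 0.0052), each against fibroblasts. The organ difference of the iEC change was 3.49 ± 0.630 (adjusted p = 0.00121), and that of the EC change was 2.86 ± 0.608 (adjusted p = 0.00252). For Ccl9, leaving out lung iEC replicate 3 gave 1.07 (adjusted p = 0.0312) for the log2 change in lung iECs against lung fibroblasts and 2.89 (adjusted p = 0.0016) for the organ difference of the iEC change.

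In the lung, macrophage markers moved with these genes. In lung iECs and in lung ECs, each against lung fibroblasts, all 16 markers were called higher (25.9% and 29.3% of all genes higher), and 15 of 16 were lower in lung iECs than in lung ECs (23% of all genes lower). Against heart fibroblasts, 4 markers were higher and 2 lower in heart iECs (26% and 24.6% of all genes). The heart ECs had 5 markers higher and 4 lower than heart fibroblasts (24.2% and 23.3% of all genes). The median log2 changes of the markers were 0.28 in heart iECs and 0.24 in heart ECs. Cd68 was 3.93 ± 0.149 and Adgre1 4.89 ± 0.522 higher on the log2 scale in lung iECs than in heart iECs, where all 16 markers were higher (adjusted p = 1.1e-12 and 7.1e-06). Of all genes, 18.9% were higher in that comparison. The part of macrophages in the levels of Ccl3, Ccl4, Ccl6, Ccl9, Ccl12 and Pf4 was not tested.

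Ccl5 (RANTES), an attractant of T cells, was called lower in iECs than in fibroblasts of both organs and higher in heart ECs. Lung libraries held Ccl5 at 1.41, 0.286 and 2.51 CPM in lung iECs, 3.58, 4.04 and 0.463 CPM in lung ECs and 6.76, 3.99 and 3.98 CPM in lung fibroblasts. Heart libraries held Ccl5 at 0.676, 0.506 and 0.393 CPM in heart iECs, 22.5, 8.39 and 10.3 CPM in heart ECs and 2.41, 3.20 and 2.42 CPM in heart fibroblasts. Heart ECs lay above and heart iECs below the heart fibroblasts in every library. Ccl5 rose by 2.26 ± 0.633 (adjusted p = 0.00932) in heart ECs and fell by 2.53 ± 0.796 in heart iECs (adjusted p = 0.0162) and by 1.97 ± 0.691 in lung iECs (adjusted p = 0.0282), each against fibroblasts. The lung iEC call was lost without replicate 1 or replicate 2 (adjusted p = 0.0702 and 0.0917). Between organs the EC change of Ccl5 differed by −3.21 ± 0.898 (adjusted p = 0.0124). For Ccl5, the call in heart iECs against heart fibroblasts was lost without heart iEC replicate 2 or 3 (adjusted p = 0.0501 and 0.0571). For Ccl5, the call in heart ECs against heart fibroblasts was lost without heart EC replicate 1 (adjusted p = 0.0542). For Ccl5, the call in lung iECs against lung fibroblasts was also lost without lung fibroblast replicate 1 (adjusted p = 0.0903). For Ccl5, leaving out lung iEC replicate 3 gave −2.71 (adjusted p = 0.015) for the log2 change in lung iECs against lung fibroblasts.

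The interferon-induced ligands Cxcl9, Cxcl10 and Cxcl11 bind CXCR3 on activated T cells. Cxcl10 stood at 59.9, 33.2 and 420.4 CPM in lung iECs, 219, 302 and 27.4 CPM in lung ECs and 116, 60.5 and 61.4 CPM in lung fibroblasts. In the heart Cxcl10 was at 13.4, 13.7 and 13.2 CPM in heart iECs, 457, 241 and 157 CPM in heart ECs and 12.7, 23.9 and 13.99 CPM in heart fibroblasts. The lung groups overlapped, whereas heart ECs exceeded all other heart libraries and heart iECs varied by 1.04-fold between libraries. Cxcl10 rose by 3.97 ± 1.04 (adjusted p = 0.0071) in heart ECs against fibroblasts and was lower in heart iECs than in heart ECs at −4.48 ± 1.06 (adjusted p = 0.00351). The excess of lung iECs over heart iECs was 3.56 ± 1.03 (adjusted p = 0.0151), and 1.66 ± 0.806 (adjusted p = 0.149) without lung iEC replicate 3. Exons of Cxcl10 overlap those of Art3 on the other strand, and whether counting used strand is not given in the sources used here. For Cxcl10, the call in lung iECs against heart iECs was also lost without any one heart iEC library (adjusted p = 0.0513 to 0.0521).

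Cxcl9 was low throughout, at 0.366, 0.191 and 1.20 CPM in lung iECs, 1.69, 1.30 and 0.139 CPM in lung ECs and 3.55, 2.40 and 1.59 CPM in lung fibroblasts. In the heart Cxcl9 was at 0.0451, 0 and 0.0436 CPM in heart iECs, 1.95, 1.02 and 1.24 CPM in heart ECs and 0.232, 0.0940 and 0.269 CPM in heart fibroblasts. It rose by 2.70 ± 0.789 (adjusted p = 0.00909) in heart ECs, fell by 2.25 ± 0.678 in lung iECs (adjusted p = 0.01) against fibroblasts, and was higher by 3.49 ± 0.775 (adjusted p = 0.00108) in lung than in heart fibroblasts. Heart iECs held 2 counts against 88 counts in heart ECs, 49.8 times lower (95% interval 13.4 to 418, counting error only). Lung iECs held 34 counts against 2 in heart iECs, a ratio of 19.8 (interval 5.07 to 169.8), and this call was lost without lung iEC replicate 3 (adjusted p = 0.079). The organ difference of the EC change was −4.06 ± 1.02 (adjusted p = 0.00436). For Cxcl9, leaving out lung iEC replicate 3 gave −3.32 (adjusted p = 0.00208) for the log2 change in lung iECs against lung fibroblasts.

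Cxcl11, which the annotation lists as a polymorphic pseudogene and whose exons overlap the processed pseudogene Gm2673, had 0.785, 0.143 and 2.88 CPM in lung iECs, 0.973, 1.43 and 0 CPM in lung ECs and 1.35, 0.564 and 0.487 CPM in lung fibroblasts. In the heart Cxcl11 had 0.451, 0.295 and 0.0873 CPM in heart iECs, 1.53, 0.0534 and 0.270 CPM in heart ECs and 0.0464, 0 and 0 CPM in heart fibroblasts. It was called in 1 comparison, with 47 counts in lung fibroblasts against 1 count in heart fibroblasts, a ratio of 46.8 (interval 8.0 to 1888). Across the 16 interferon response genes, 15 were lower in heart iECs than in heart ECs with a median log2 change of −1.71, and 9 were lower in lung ECs than in heart ECs. Of all genes, 24.4% and 23.7% were lower in these comparisons. For Cxcl11, the call between fibroblasts was lost without lung fibroblast replicate 1 or any one heart fibroblast library (adjusted p = 0.0823 to 0.109).

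Cxcl12, the ligand of CXCR4 that stromal cells make at steady state, fell in the iECs of both organs against fibroblasts. In the lung it stood at 192, 145 and 159.9 CPM in lung iECs, 111, 101 and 119 CPM in lung ECs and 535, 639 and 519 CPM in lung fibroblasts. In the heart it was at 58.5, 58.2 and 62.7 CPM in heart iECs, 361, 422 and 354 CPM in heart ECs and 435, 402 and 421 CPM in heart fibroblasts. The replicates were tight, with no library standing apart, and the iECs of each organ lay below its fibroblasts without overlap. Cxcl12 fell by 2.99 ± 0.109 in heart iECs (adjusted p = 1.41e-13) and by 1.93 ± 0.104 in lung iECs (adjusted p = 3.3e-11) against fibroblasts. ECs split by organ, with −2.47 ± 0.106 (adjusted p = 9.45e-13) in lung ECs and −0.26 ± 0.101 (adjusted p = 0.0413) in heart ECs against fibroblasts, with overlapping libraries in the heart. The organ difference was 1.06 ± 0.143 (adjusted p = 2.3e-05) for the iEC change and −2.21 ± 0.144 (adjusted p = 1.96e-09) for the EC change, so both passed with opposite signs. Lung iECs stood above lung ECs by 0.54 ± 0.102 (adjusted p = 0.000258), and heart iECs stood below heart ECs at −2.73 ± 0.108 (adjusted p = 7.33e-13). For Cxcl12, the call in heart ECs against heart fibroblasts was lost without heart EC replicate 1 or 3 or any one heart fibroblast library (adjusted p = 0.0516 to 0.168).

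Cxcl14, made at steady state by epithelia and fibroblasts, was higher in lung than in heart in all 3 cell types. It stood at 13.0, 13.9 and 11.5 CPM in lung iECs, 32.2, 45.6 and 27.3 CPM in lung ECs and 22.1, 14.1 and 16.8 CPM in lung fibroblasts. In the heart Cxcl14 was at 0.631, 0.885 and 0.611 CPM in heart iECs, 3.1, 3.95 and 3.88 CPM in heart ECs and 5.62, 5.69 and 6.57 CPM in heart fibroblasts. Lung exceeded heart by 1.43 ± 0.198 (adjusted p = 9.17e-06) in fibroblasts, 4.04 ± 0.257 (adjusted p = 6.67e-10) in iECs and 3.14 ± 0.210 (adjusted p = 6.82e-10) in ECs. Cxcl14 fell by 3.24 ± 0.266 in heart iECs (adjusted p = 9.38e-09) and by 0.63 ± 0.189 in lung iECs (adjusted p = 0.00976) against fibroblasts, and the organ difference was 2.61 ± 0.331 (adjusted p = 1.24e-05). In ECs it rose in the lung at 0.88 ± 0.184 (adjusted p = 0.000467) and fell in the heart at −0.83 ± 0.217 (adjusted p = 0.00441), an organ difference of 1.71 ± 0.284 (adjusted p = 0.000114). For Cxcl14, the call in lung iECs against lung fibroblasts was lost without lung fibroblast replicate 1 (adjusted p = 0.0653).

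Cxcl13, the B cell attractant that binds CXCR5, was at 0.628, 0.0954 and 1.26 CPM in lung iECs, 37.2, 43.8 and 6.02 CPM in lung ECs and 7.49, 8.79 and 6.86 CPM in lung fibroblasts. In the heart Cxcl13 was at 0.0451, 0.127 and 0.0436 CPM in heart iECs, 7.43, 7.80 and 4.21 CPM in heart ECs and 0.464, 0.282 and 0.0538 CPM in heart fibroblasts. Both iEC groups lay below the ECs of their organ in every library, with −5.54 ± 0.773 (adjusted p = 5.13e-05) in the lung and −6.44 ± 1.09 (adjusted p = 0.000249) in the heart. Lung iECs also fell by 3.72 ± 0.784 against lung fibroblasts (adjusted p = 0.00127). Heart ECs rose by 4.42 ± 0.905 (adjusted p = 0.00125) against fibroblasts. The lung EC change was 1.82 ± 0.584 (adjusted p = 0.0163), with replicate 3 below every lung fibroblast library, and it was lost without lung EC replicate 1 or replicate 2 (adjusted p = 0.0526 and 0.0792). Lung fibroblasts exceeded heart fibroblasts by 4.64 ± 0.897 (adjusted p = 0.000703). For Cxcl13, the call in lung ECs against lung fibroblasts was also lost without lung fibroblast replicate 3 (adjusted p = 0.0548). For Cxcl13, leaving out lung iEC replicate 3 gave −4.60 (adjusted p = 0.00232) for the log2 change in lung iECs against lung fibroblasts and −6.42 (adjusted p = 0.000189) for the log2 change in lung iECs against lung ECs. For Cxcl13, leaving out heart fibroblast replicate 1 gave 5.06 (adjusted p = 0.0047) for the log2 change in heart ECs against heart fibroblasts and 5.28 (adjusted p = 0.00294) for the log2 change in lung against heart fibroblasts. For Cxcl13, the heart iEC libraries other than replicate 2 held 2 counts in sum, so no fold without that library is given.

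Cxcl16 and Cx3cl1 are made as transmembrane proteins that hold cells bearing CXCR6 or CX3CR1 at the surface until they are shed. Cxcl16 stood at 58.8, 41.4 and 128 CPM in lung iECs, 102, 118 and 51.9 CPM in lung ECs and 37.2, 30.7 and 20.7 CPM in lung fibroblasts. In the heart it was at 136, 125 and 130.4 CPM in heart iECs, 200.1, 156 and 147 CPM in heart ECs and 47.3, 41.7 and 44.7 CPM in heart fibroblasts. Cxcl16 rose over fibroblasts in all 4 comparisons, with 1.36 ± 0.396 (adjusted p = 0.0114) in heart iECs, 1.21 ± 0.401 (adjusted p = 0.0227) in lung iECs, 1.80 ± 0.400 (adjusted p = 0.00245) in heart ECs and 1.52 ± 0.403 (adjusted p = 0.00547) in lung ECs. The lung iEC value fell to 0.59 ± 0.327 (adjusted p = 0.164) without replicate 3. Heart iECs, at 125 to 136 CPM, lay under heart ECs in every library, where the fit to all groups gave −0.44 ± 0.385 (adjusted p = 0.378) against heart ECs. The fit to those 6 libraries alone called the difference at −0.45 ± 0.132 (adjusted p = 0.0272). Exons of Cxcl16 overlap those of Zmynd15 on the other strand. For Cxcl16, the call in lung iECs against lung fibroblasts was also lost without lung fibroblast replicate 2 or 3 (adjusted p = 0.0534 and 0.0882).

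Cx3cl1 (fractalkine) was lower in the lung than in the heart in each cell type. Lung libraries held Cx3cl1 at 8.95, 8.92 and 11.9 CPM in lung iECs, 24.3, 30.9 and 11.9 CPM in lung ECs and 10.5, 9.91 and 10.7 CPM in lung fibroblasts. Heart libraries held Cx3cl1 at 33.4, 32.5 and 34.4 CPM in heart iECs, 31.7, 35.2 and 33.8 CPM in heart ECs and 44.4, 38.5 and 42.7 CPM in heart fibroblasts. The difference between organs was −2.15 ± 0.250 (adjusted p = 3.49e-06) in fibroblasts, −1.87 ± 0.250 (adjusted p = 2.33e-05) in iECs and −0.71 ± 0.236 (adjusted p = 0.0212) in ECs, and in ECs lung replicates 1 and 2 reached close to the heart range. The fit to ECs alone did not call it (−0.72 ± 0.368 with adjusted p = 0.17). Lung ECs exceeded lung fibroblasts by 1.01 ± 0.249 (adjusted p = 0.00268), and lung iECs lay below lung ECs at −1.24 ± 0.251 (adjusted p = 0.000868). Heart iECs gave −0.51 ± 0.232 (adjusted p = 0.0802) against heart fibroblasts in the fit to all groups and −0.52 ± 0.0686 (adjusted p = 4.61e-07) in the fit to those alone. For Cx3cl1, the call in lung ECs against heart ECs was lost without heart EC replicate 2 (adjusted p = 0.056).

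**Figure D5:**
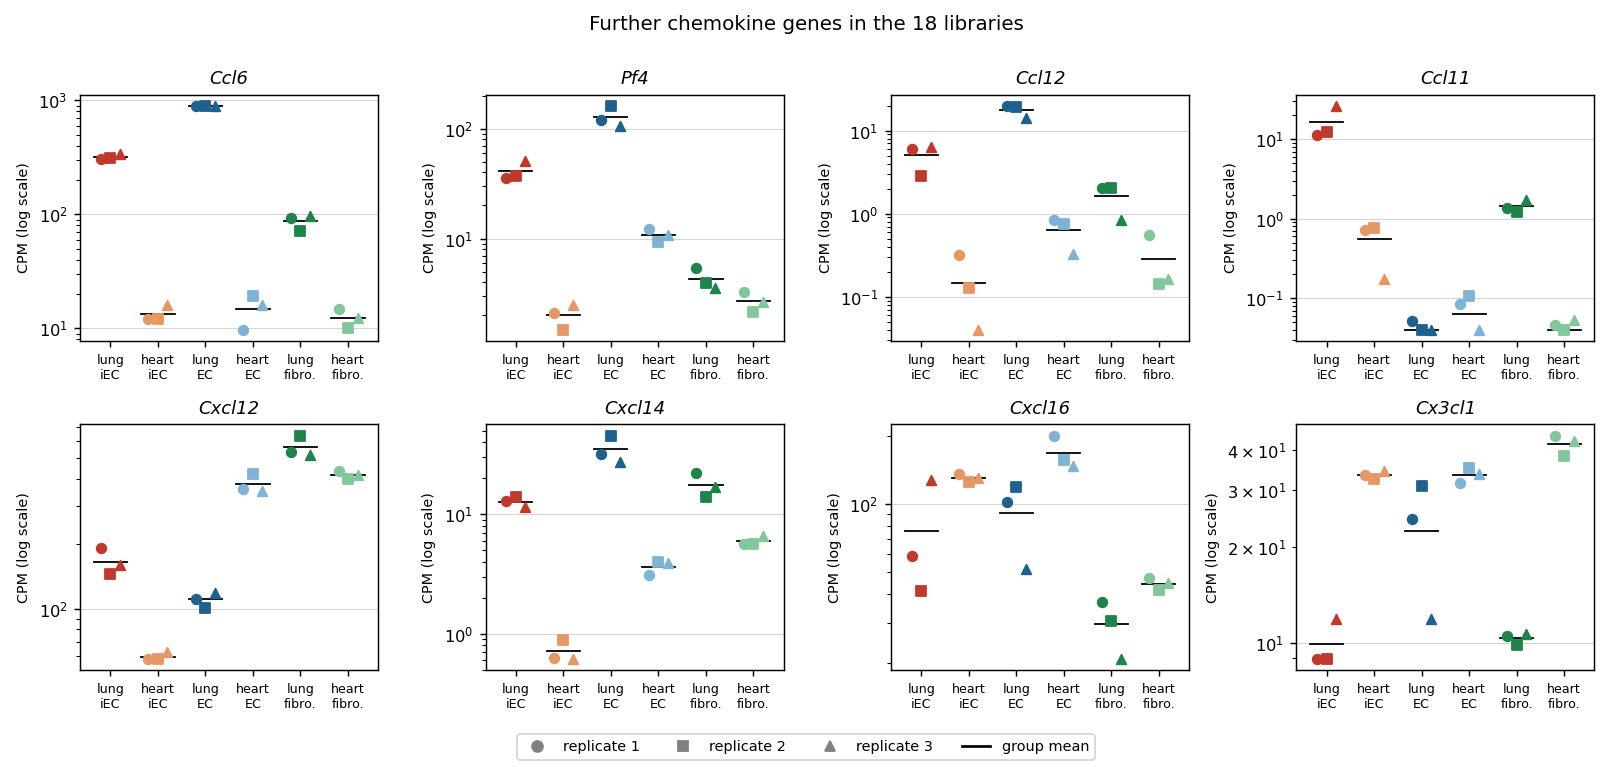
CPM (log axis) of 8 further chemokine genes in the 18 libraries, by group, with symbols for replicates 1 to 3 and a line at the group mean. A library without a count is drawn at 0.04 CPM. Ccl6 in lung ECs lies between 884.8 and 888 CPM with replicate 3 among the others, Ccl11 exceeds 2 CPM in lung iECs alone, and Cxcl12 in both iEC groups lies below the fibroblasts of the organ.

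The homing ligands were mostly low. Ccl19, which with Ccl21a guides lymphocytes and dendritic cells through CCR7, stood at 0.0523, 0 and 0.105 CPM in lung iECs, 0, 0.168 and 0 CPM in lung ECs and 5.24, 2.87 and 1.64 CPM in lung fibroblasts. In the heart Ccl19 was at 0, 0 and 0 CPM in heart iECs, 5.73, 5.77 and 6.26 CPM in heart ECs and 1.67, 1.79 and 2.48 CPM in heart fibroblasts. It was at least 44.8-fold lower in heart iECs than heart fibroblasts and at least 135-fold lower than in heart ECs, with 3 counts over the group in place of 0. Lung iECs held 3 counts against 191 counts in lung fibroblasts, 61.1 times lower (95% interval 20.6 to 299, counting error only). Lung ECs fell by 5.69 ± 0.689 against lung fibroblasts (adjusted p = 2.55e-06), while heart ECs rose by 1.47 ± 0.441 (adjusted p = 0.0119) against theirs, and the organ difference was −7.16 ± 0.831 (adjusted p = 4.48e-06). For Ccl19, the lung EC libraries other than replicate 2 held no count in sum, so no fold without that library is given.

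Ccl20, the ligand of CCR6, had the spread of the inducible genes. It was at 1.41, 0.334 and 4.24 CPM in lung iECs, 4.10, 2.78 and 0.648 CPM in lung ECs and 1.30, 0.987 and 0.796 CPM in lung fibroblasts. In the heart Ccl20 was at 0, 0 and 0 CPM in heart iECs, 3.86, 3.79 and 3.56 CPM in heart ECs and 0, 0.188 and 0.215 CPM in heart fibroblasts. Heart iECs held no count and were at least 86.0-fold below heart ECs and at least 44.6-fold below lung iECs, or at least 20.0-fold without lung iEC replicate 3. Heart ECs rose by 4.67 ± 0.987 (adjusted p = 0.00148) against fibroblasts, and the organ difference of the EC change was −3.48 ± 1.28, with an adjusted p of 0.05 as rounded that lay under the threshold. For Ccl20, the call for the organ difference of the EC change was lost without lung EC replicate 2 or 3, any one heart EC library, any one lung fibroblast library or any one heart fibroblast library (adjusted p = 0.0564 to 0.12). For Ccl20, leaving out heart fibroblast replicate 1 gave 4.07 (adjusted p = 0.00859) for the log2 change in heart ECs against heart fibroblasts.

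Ccl17, a CCR4 ligand, stood at 0.523, 0.525 and 0.890 CPM in lung iECs, 0.922, 0.463 and 0.371 CPM in lung ECs and 0.225, 0.282 and 0.442 CPM in lung fibroblasts. In the heart Ccl17 was at 1.67, 1.69 and 0.873 CPM in heart iECs, 0.891, 0.748 and 1.19 CPM in heart ECs and 0.0464, 0.0940 and 0.162 CPM in heart fibroblasts. Ccl17 rose in heart iECs by 3.59 ± 0.568 (adjusted p = 3.59e-05), and it rose by 3.08 ± 0.583 (adjusted p = 0.000296) in heart ECs against fibroblasts. The lung changes were not called, and the organ differences were −2.75 ± 0.781 (adjusted p = 0.0142) for iECs and −2.35 ± 0.789 (adjusted p = 0.0273) for ECs. Lung iECs were lower than heart iECs at −1.24 ± 0.444 (adjusted p = 0.0353), with overlapping libraries. For Ccl17, the call for the organ difference of the iEC change was lost without lung fibroblast replicate 3 (adjusted p = 0.0515). For Ccl17, the call for the organ difference of the EC change was lost without lung EC replicate 2 or 3, heart EC replicate 3, lung fibroblast replicate 3 or heart fibroblast replicate 1 or 2 (adjusted p = 0.0532 to 0.0845). For Ccl17, the call in lung iECs against heart iECs was lost without lung iEC replicate 1 or 2 or heart iEC replicate 1 or 2 (adjusted p = 0.112 to 0.119).

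Ccl21a stood at 0.157, 0 and 0.209 CPM in lung iECs, 0.256, 0.337 and 1.57 CPM in lung ECs and 0.225, 0.188 and 0.619 CPM in lung fibroblasts. In the heart Ccl21a was at 0.135, 0.380 and 0.174 CPM in heart iECs, 0.637, 2.56 and 0.432 CPM in heart ECs and 2.37, 1.36 and 1.94 CPM in heart fibroblasts. In heart iECs it was lower than in heart fibroblasts (−3.18 ± 0.803 with adjusted p = 0.00291) and than in heart ECs (−2.41 ± 0.815 with adjusted p = 0.0203). The mouse genome holds near-identical copies of Ccl21a, so these counts may be split among them and the values are uncertain. The lower level of lung iECs than lung ECs, −2.56 ± 0.946 (adjusted p = 0.0351), was lost without lung EC replicate 3 at −1.35 ± 1.0 (adjusted p = 0.291). For Ccl21a, the call in heart iECs against heart ECs was lost without heart iEC replicate 1 or 3 or heart EC replicate 2 (adjusted p = 0.0688 to 0.234). For Ccl21a, the call in lung iECs against lung ECs was also lost without lung iEC replicate 1 or 2 (adjusted p = 0.0689 and 0.124). For Ccl21a, the lung iEC libraries other than replicate 3 held 3 counts in sum, so no fold without that library is given.

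Ccl27a, a ligand of CCR10 in skin, stood at 2.46, 1.72 and 1.83 CPM in lung iECs, 1.79, 1.72 and 1.99 CPM in lung ECs and 3.78, 3.34 and 3.01 CPM in lung fibroblasts. In the heart Ccl27a was at 1.40, 1.14 and 0.698 CPM in heart iECs, 1.15, 1.07 and 0.432 CPM in heart ECs and 1.21, 0.799 and 1.61 CPM in heart fibroblasts. It was higher in lung than in heart fibroblasts by 1.34 ± 0.337 (adjusted p = 0.00285), and its lower value in lung iECs than in lung fibroblasts, −0.91 ± 0.324 (adjusted p = 0.0255), was lost without lung iEC replicate 2 or 3. Its exons overlap those of Il11ra1 and a near-identical copy exists, so its counts are uncertain. Ccl25, a CCR9 ligand of thymus and gut, ranged from 1.94 to 4.76 CPM and Ccl28, a mucosal CCR10 ligand, from 0.174 to 1.83 CPM over the 18 libraries, and neither was called in any comparison. Exons of Ccl25 overlap those of Elavl1. The 3 further members under the filter, Ccl22 (a CCR4 ligand), Ccl24 (a CCR3 ligand) and Cxcl17 (of mucosal tissue), were at most 0.366, 0.477 and 1.25 CPM in any library. For Ccl27a, the call in lung iECs against lung fibroblasts was also lost without lung fibroblast replicate 1 (adjusted p = 0.0694).

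Most receptor genes for these ligands were low. Of 18 chemokine receptor genes 8 passed the filter, and Ccr8 and Ccr4 had no count in any library. Cxcr4, the receptor of Cxcl12, stood at 6.49, 8.35 and 3.56 CPM in lung iECs, 80.0, 73.2 and 87.8 CPM in lung ECs and 1.63, 1.55 and 1.59 CPM in lung fibroblasts. Heart libraries held Cxcr4 at 5.86, 5.19 and 5.85 CPM in heart iECs, 20.7, 19.7 and 21.5 CPM in heart ECs and 8.40, 6.39 and 8.61 CPM in heart fibroblasts. It was lower in iECs than in ECs of the same organ, at −3.75 ± 0.187 (adjusted p = 2.12e-11) in the lung and −1.94 ± 0.183 (adjusted p = 9.25e-08) in the heart. Cx3cr1, the receptor of Cx3cl1, varied between the lung iEC and lung EC libraries, at 9.63, 18.7 and 1.26 CPM in lung iECs, 3.02, 1.51 and 21.0 CPM in lung ECs and 0.507, 0.0470 and 0.0880 CPM in lung fibroblasts. Lung iEC replicate 3 and lung EC replicates 1 and 2, where the ELR ligands were high, were the lung iEC and EC libraries with the least Cx3cr1. Ccr1, which binds Ccl3, Ccl5, Ccl6 and Ccl9, was at 19.9, 30.1 and 18.3 CPM in lung iECs, 26.8, 31.6 and 36.5 CPM in lung ECs and 7.44, 5.45 and 5.44 CPM in lung fibroblasts, and rose by 1.74 ± 0.188 (adjusted p = 4.03e-07) in lung iECs and by 2.26 ± 0.189 (adjusted p = 9.52e-09) in lung ECs against fibroblasts.

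Atypical receptors bind chemokines without signalling through G proteins and lower or move their amounts. All 5 were tested, and 4 were lower in heart iECs than in heart ECs and 3 were lower in lung iECs than lung ECs (24.4% and 23% of all genes lower). Ackr3, which takes up Cxcl12, was at 4.92, 4.87 and 3.82 CPM in lung iECs, 26.8, 35.4 and 35.6 CPM in lung ECs and 30.8, 29.6 and 24.9 CPM in lung fibroblasts. In the heart Ackr3 was at 11.1, 13.3 and 10.9 CPM in heart iECs, 58.6, 46.9 and 47.8 CPM in heart ECs and 19.5, 19.4 and 20.1 CPM in heart fibroblasts. It was lower in iECs than in ECs at −2.89 ± 0.145 (adjusted p = 1.7e-11) in the lung and −2.19 ± 0.132 (adjusted p = 2e-10) in the heart, with no overlap. Ackr1, the atypical receptor of venules that carries inflammatory CC and CXC ligands, was at 0.270, 0.253 and 0.0870 CPM in heart iECs, 12.7, 10.8 and 13.4 CPM in heart ECs and 0.278, 0.0470 and 0.215 CPM in heart fibroblasts, and was lower in heart iECs than in heart ECs at −5.95 ± 0.577 (adjusted p = 1.64e-07). Among 6 proteases that cleave or shed chemokines, Dpp4, which inactivates Cxcl12 and others, was lower in iECs than in ECs at −1.50 ± 0.293 (adjusted p = 0.000391) in the lung and −4.53 ± 0.321 (adjusted p = 1.79e-09) in the heart.

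NF-kB genes outside the family took the same directions in the heart. Of 14 NF-kB genes 13 were higher in heart ECs than in heart fibroblasts (24.2% of all genes higher). All 14 were lower in heart iECs than in heart ECs (24.4% of all genes lower). The median log2 changes were 1.12 and −1.46. The feedback inhibitor gene Tnfaip3 gave 2.18 ± 0.559 (adjusted p = 0.00633) and −2.87 ± 0.575 (adjusted p = 0.00109). Of 16 interferon response genes 2 were higher and 1 was lower in heart ECs than in heart fibroblasts (24.2% and 23.3% of all genes). Of these 16, 15 were lower in heart iECs than in heart ECs (24.4% of all genes). Of 19 inflammatory cytokine and receptor genes 9 were higher and 1 was lower in heart ECs than in heart fibroblasts, beside the same shares. Against heart ECs, 14 were lower and none higher in heart iECs (24.4% and 24.5% of all genes). Csf3 and Csf2 were among these 14. In the lung 9 of 14 NF-kB genes were higher in ECs than in fibroblasts (29.3% of all genes higher). In lung iECs 2 were lower and none higher than in lung ECs (23% of all genes lower and 22.2% higher). That count includes replicate 3 of both groups, where all 14 were highest among lung iECs and lowest among lung ECs. Replicates 1 and 2 summed to 811 and 584 CPM in lung iECs and to 1749 and 1669 CPM in lung ECs. No count of NF-kB genes was made without replicate 3. The receptors, proteases and other genes named here that are no chemokines were picked with their values known. These lists were chosen with earlier results of these data known, and none was put to a set test.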

How the data were processed

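Per the labels, mRNA of 18 mouse cell cultures was sequenced, with 3 libraries in each of 6 groups. The deposited table holds estimated counts per Ensembl gene ID as whole numbers, and Salmon, DESeq2 and mm10 are named in the submitters' processing notes. Versions, read settings and whether strand was used are not given in the sources used here. Library totals ran from 17747632 to 23775372 counts. Symbols came from GENCODE M21 (GRCm38) for 35422 of 35727 IDs. Groups were taken from the sample labels.

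Counts were filtered with filterByExpr, scaled by TMM and fitted with edgeR 4.0.16 in R 4.3.3 (robust quasi-likelihood fit over all 18 libraries, 1 coefficient per group, 12 residual degrees of freedom, common biological coefficient of variation 0.135). P-values were adjusted by Benjamini-Hochberg over all 14864 tested genes, with a threshold of 0.05. The SE of a log2 change is its size divided by the square root of F. CPM values use the library total, and levels per kilobase use the union of exons. The steps were tested on simulated data. Where a group had no count, 3 counts over the group stood in for 0, and 95% intervals of a ratio came from the counts. Such bounds and intervals hold for counting error alone, because reads without molecular identifiers are no independent molecules.

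A member is given in each library where it was tested, was called in at least 1 comparison and averaged at least 1 CPM in at least 1 group, which left 28 members. The others are given by range. The members, the marker and pathway lists and the tests were chosen with earlier results of these data known. Promoters are RefSeq's on GRCm38.p6.

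Alternatives were DESeq2 1.42.0, its RLE scaling in edgeR, the compared groups alone, no filter beyond 1 count, a stricter filter (1 CPM in 3 or more libraries), a replicate block and leaving out each library. Leaving out lung iEC replicate 3 and lung EC replicate 3 together was added after the data were seen.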

Additional observations from a re-analysis of the deposited data

Results flagged for a closer look

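For 7 members the change of iECs against fibroblasts differed between organs, by the lung minus heart contrast in edgeR's quasi-likelihood fit. On the log2 scale the difference was 1.79 for Ccl6, 3.49 for Ccl9, 3.70 for Pf4, 2.61 for Cxcl14, 1.06 for Cxcl12, 7.00 for Cxcl5 and −2.75 for Ccl17. Cxcl5 gave 4.29 without lung iEC replicate 3 and was then not called (adjusted p = 0.0679).

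For 12 members the change of ECs against fibroblasts differed between organs in the same fit. The difference was positive for Ccl6 (3.09), Ccl9 (2.86), Pf4 (2.91), Cxcl14 (1.71) and Cx3cl1 (1.44). It was negative for Ccl5 (−3.21), Ccl11 (−6.97), Ccl17 (−2.35), Ccl19 (−7.16), Ccl20 (−3.48), Cxcl9 (−4.06) and Cxcl12 (−2.21). Of these, Ccl17 and Ccl20 were lost without lung EC replicate 3 (adjusted p = 0.0547 and 0.0564). The value for Ccl11 is no bound, since lung ECs held 1 count and heart fibroblasts 2 counts of it. The value for Ccl19 is no bound either, since lung ECs held 4 counts of it, all in replicate 2. Of the 6 members that differed in both contrasts, Cxcl12 was the one with opposite signs.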

How the results depend on the processing

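Of 166 called changes of members over all comparisons, 120 held under each alternative that gave an adjusted p, 46 were lost under at least 1 and none changed sign. By setting, 1 of 162 was lost with DESeq2 (4 had no adjusted p), 1 with RLE scaling, 10 with no filter beyond 1 count, 18 of 154 with the compared groups alone and none of 162 with the 1 CPM filter, while 40 were lost when at least 1 single library was left out. The number of members called moved by over 1.5 times in 5 comparisons. Lung iECs against lung ECs had 12 called members, 21 without lung iEC replicate 3 and 24 without replicate 3 of both groups. The compared groups alone gave 11 instead of 21 for lung against heart iECs, 9 instead of 15 for lung against heart ECs and 20 instead of 12 for lung against heart fibroblasts. The organ difference of the iEC change had 7 called members, 11 with DESeq2 and 11 without lung iEC replicate 2. The cause was not tested.

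With each library left out in turn, the number of called members ranged from 12 to 20 for lung iECs and from 9 to 11 for heart iECs against fibroblasts. It ranged from 19 to 21 for lung ECs and from 15 to 18 for heart ECs against fibroblasts. It ranged from 10 to 21 for lung iECs and from 18 to 20 for heart iECs against ECs. Between organs the ranges were 16 to 21 for iECs, 10 to 15 for ECs and 9 to 11 for fibroblasts, and 5 to 11 and 10 to 12 for the organ differences of the iEC and EC changes.

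With the replicate number as a block, 156 of the 166 calls held and 10 were lost. Deviations of libraries with the same number correlated at −0.398 to 0.117 between the compared groups. Some libraries correlated best with their own number and others did not. This does not settle whether the numbers pair the libraries. Depth limits members near 1 count per library, such as Ccl11 and Ccl19 in lung ECs. The Ccl11 folds between pairs of groups rest on counting intervals. The Ccl19 changes of lung ECs are fitted values and no bounds, with all 4 counts of that group in replicate 2.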
